A study of Mus musculus with 16 samples.

Results

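Bone morphogenetic protein 2 (BMP2) was compared with vehicle in mt cells, an immortalized mouse epicardial line that is null for Tgfbr3. The comparison rests on the BMP2 and vehicle libraries of that line, 2 of each, taken as pairs by replicate number, which is 4 of the 16 libraries of the series. Every gene entry was considered, 30385 in all, and 16835 passed the filter on low counts and were tested. The members were set by their labels and not by any measured value.

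The series holds 2 lines, mt (Tgfbr3-/-:Immorto) and wt (Tgfbr3+/+:Immorto), both isolated at E11.5 on a mixed C57BL/6 and SV129 background. Both carry the Immorto transgene, a temperature-sensitive T antigen. Cells were expanded at 33 °C with interferon gamma and an insulin, transferrin and selenium supplement, and were then moved to 37 °C without either, which inactivates the T antigen. They were plated at 200000 per well and received vehicle, 5 nM BMP2, 250 pM TGFB1 or 250 pM TGFB2 for 72 h, with 2 libraries of polyadenylated RNA per group. Each genotype is represented by 1 line, so genotype and line cannot be told apart. The labels do not say whether the replicates were separate cultures, so the p-values measure the spread between these libraries, which may be technical.

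The epicardium is the mesothelial layer that covers the heart, and some of its cells undergo a transition to mesenchyme and give rise to fibroblasts and vascular smooth muscle. BMP2 binds type I and type II serine/threonine kinase receptors, which phosphorylate Smad1, Smad5 and Smad9. These join Smad4 in the nucleus, where they switch on targets that include the Id genes, Dlx and Msx homeobox genes, and the inhibitory Smads, which feed back on the pathway. Tgfbr3, also called betaglycan, is a co-receptor that binds TGF-beta ligands, inhibin and several BMPs, among them BMP2.

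The mt BMP2 libraries held 7109519 and 24428144 reads for replicates 1 and 2, and the mt vehicle libraries 12010062 and 18587470, within a range of 6410320 to 31813921 over all 16. Tgfbr3 itself was read at 9.73 and 13.1 CPM (counts per 1e+06 reads, scaled by TMM) with BMP2 and at 14.6 and 18.2 with vehicle in mt cells, against 71.0 to 100.3 in the wt libraries with BMP2 or vehicle. All 4 mt values lay below all of those wt values. Reads were counted over the whole gene entry, and the labels do not say which exons the null line lacks. The 10 epicardial markers, among them Wt1, Tbx18, Tcf21 and Upk3b, all had reads in the 4 libraries and summed to 3166 and 3638 CPM with BMP2 and to 2610 and 3393 with vehicle. None of the 10 passed the test (smallest adjusted p = 0.717, edgeR). Of 22 cardiomyocyte markers, 18 were higher in replicate 1 than in replicate 2 within both the mt BMP2 and the mt vehicle group. The share of all tested genes with this pattern was not computed, so the count describes these markers only. Over the tested genes the replicate deviations of these 2 groups correlated at 0.756. Myh6, the alpha heavy chain of cardiac myosin, was among the 18, at 18.2 and 0.131 CPM with BMP2 and at 14.6 and 0 with vehicle. Hspb7 went the other way, at 12.5 and 28.4 CPM with BMP2 and at 4.80 and 15.1 with vehicle.

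Few of the transcripts tested were called for BMP2 in mt cells, and most of the calls were rises. By edgeR's quasi-likelihood test with a term for replicate number and a Benjamini-Hochberg adjusted p under 0.05, 39 of 16835 entries were called, which is 0.232%. Of these 33 were higher with BMP2 (0.196%) and 6 lower (0.0356%). Those 39 entries stand for 38 loci, since AK077272 and AK019455 list the same one. The rises ran from 0.89 to 4.59 on the log2 scale and the falls from -1.10 to -3.00, while the median absolute log2 fold change over all tested genes was 0.19. In all 39 the CPM of the BMP2 and vehicle groups did not overlap, and both pairs moved the same way; 18.9% of all tested genes had groups that did not overlap, 9.36% with BMP2 higher and 9.56% with BMP2 lower. An unadjusted p under 0.05 was reached by 1178 genes, and another 27 genes had an adjusted p from 0.05 to under 0.1. Values below are log2 fold changes ± SE with 2 libraries per group, and each adjusted p is that of this edgeR test over 16835 genes. The spread behind SE and p was estimated over all 16 libraries, those of the wt line and the TGF-beta groups included.

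The number of calls depended on the replicate term, on the libraries fitted together and on single libraries. With the 8 mt libraries alone 10 genes were called, 9 of them among the 39. Without the replicate block 7 genes were called, namely Crabp1, Dlx3, Dtx4, Lce1g, Lrrtm1, Smad7 and Tbx20, all of them among the 39. Without replicate 1 of the mt BMP2 libraries 10 were called, all among the 39, and without its replicate 2 it was 24, of which 21 were among them. Without mt vehicle replicate 1 there were 39 calls and without mt vehicle replicate 2 there were 32, of which 24 and 19 were shared with the full set. The 4 mt replicate 1 libraries left out together gave 11 calls, 10 of them shared. Crabp1 and Lrrtm1 were called in all 12 alternatives run, and Dtx4, Hes1, Lce1g, Rab3b and Sh3kbp1 in 11.

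**Figure D1:**
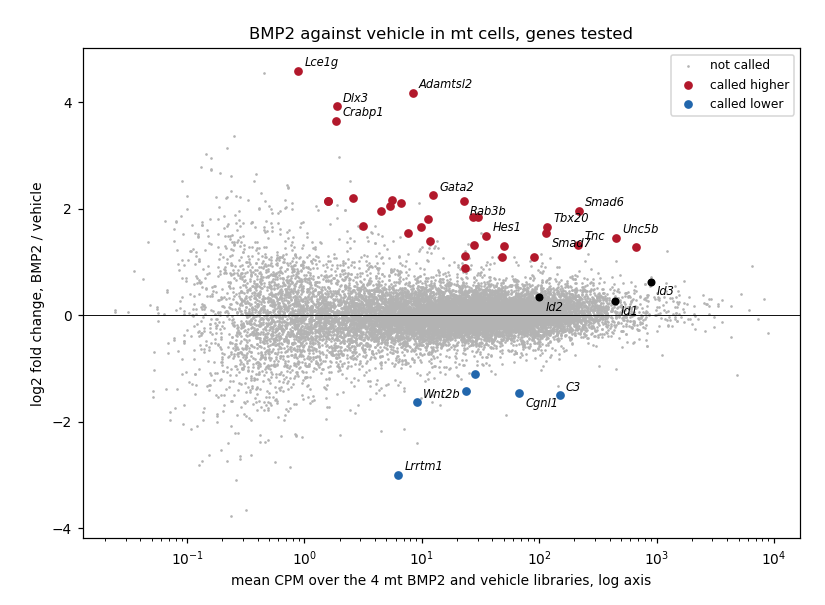
Each point is 1 gene, placed by its mean CPM over the 4 mt BMP2 and vehicle libraries (log axis) and its log2 fold change of BMP2 over vehicle; 16783 of the tested genes are drawn, and 52 with no reads in 1 of the groups are not. The 33 entries called higher (red) run from low levels (Lce1g) to high ones (Unc5b), the 6 called lower (blue) lie between -1.10 and -3.00, and Id1, Id2 and Id3 (black) sit among the genes that were not called.

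The inhibitory Smads Smad6 and Smad7 were the called members of the list of BMP feedback genes. Smad6, which blocks receptor signalling of the BMP branch, was read at 374 and 321 CPM with BMP2 and at 61.4 and 120.1 with vehicle. Both BMP2 libraries lay above both vehicle libraries, and the vehicle libraries differed from each other by more than the BMP2 libraries did. The change was 1.96 ± 0.26 (adjusted p = 0.00526), with 2.60 in pair 1 and 1.42 in pair 2. Smad7, which blocks both the BMP and the TGF-beta branch, stood at 188 and 152 CPM with BMP2 and at 49.2 and 66.8 with vehicle, again without overlap. It rose by 1.54 ± 0.19 (adjusted p = 0.00251). Without mt BMP2 replicate 1 the changes were 1.76 for Smad6 (adjusted p = 0.0860) and 1.40 for Smad7 (0.0513), and without the replicate block that of Smad6 was 1.94 (0.0676).

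The promoter of Smad6 is shown because it is the called feedback gene with an entry in the RefSeq promoter table used here (build GRCm38.p6, from 250 bases before to 50 after the gene start). It lies on the minus strand at chr9:64022010-64022309, and the capitals mark GTCTAGAC, a palindrome known as a binding sequence of Smad3 and Smad4 in vitro.
Smad6: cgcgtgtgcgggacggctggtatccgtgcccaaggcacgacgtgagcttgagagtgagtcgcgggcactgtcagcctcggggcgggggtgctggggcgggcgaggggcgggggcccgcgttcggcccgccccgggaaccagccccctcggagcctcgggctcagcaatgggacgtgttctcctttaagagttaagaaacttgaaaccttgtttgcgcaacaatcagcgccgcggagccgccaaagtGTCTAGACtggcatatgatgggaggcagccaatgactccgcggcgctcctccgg
The same 8 letters were found in the window of 1 other entry called higher, Klhl6, on the minus strand at chr16:19983000-19983299, with the palindrome in capitals.
Klhl6: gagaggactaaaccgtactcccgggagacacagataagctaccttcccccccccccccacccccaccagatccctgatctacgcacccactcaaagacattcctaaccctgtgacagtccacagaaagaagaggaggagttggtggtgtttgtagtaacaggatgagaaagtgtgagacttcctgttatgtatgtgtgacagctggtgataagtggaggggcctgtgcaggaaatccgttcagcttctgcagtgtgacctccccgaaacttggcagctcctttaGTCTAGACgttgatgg
Of the called entries 27 of 39 had a window. GTCTAGAC was present in 2 of the 22 genes called higher that had one and in 0.248% of 27025 genes with a window. The shorter Smad box CAGAC, searched on both strands (GTCTG), was present in 11 of the 22 and in 53.2% of all genes, and the GC-rich motif GGCGCC, bound by Smad1 and Smad5, in 5 of the 22 and in 13.4%. The palindrome holds no CAGAC or GTCTG and was chosen after the Smad6 sequence had been seen; a match describes the letters only.

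The other 9 members of the feedback list did not pass the test, so 2 of its 11 members were called higher and none lower, with a list median of 0.51 against -0.0028 over all tested genes. Among them are the Id genes, which encode dominant-negative partners of basic helix-loop-helix factors. Id1 was at 441 and 509 CPM with BMP2 and at 301 and 520 with vehicle, so that the groups overlapped, and its value was 0.26 ± 0.24 (adjusted p = 0.910). Id3 stood at 777 and 1255 CPM with BMP2 and at 333 and 1196 with vehicle, a gap that was wide in pair 1 and small in pair 2. The values were 0.34 ± 0.25 for Id2, 0.63 ± 0.29 for Id3 and 0.82 ± 0.27 for Id4, with adjusted p from 0.393 to 0.897. Smad9, a receptor-activated Smad of the BMP branch, was at 35.7 and 33.0 CPM with BMP2 and at 13.7 and 19.0 with vehicle, without overlap, but its 1.07 ± 0.26 missed the threshold (adjusted p = 0.142). Atoh8 had 0.51 ± 0.25, the pseudoreceptor Bambi 0.21 ± 0.23, and the ubiquitin ligases Smurf1 and Smurf2, which target Smads and receptors, -0.04 ± 0.28 and 0.22 ± 0.15.

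Among the transcription factors called higher were Dlx3, Tbx20, Gata2, Prrx2 and Foxs1. Dlx3, a homeobox factor of placenta, epidermis and bone, was read 26 and 80 times with BMP2 and 3 and 4 times with vehicle, or 3.61 and 3.49 CPM against 0.248 and 0.215. The BMP2 values lay far above the vehicle values, all of them low. It rose by 3.92 ± 0.58 (adjusted p = 0.00251), and by 3.59 (0.0614) without mt vehicle replicate 2. Dlx2, of the same family but on another chromosome, was at 17.1 and 13.6 CPM with BMP2 and at 5.30 and 7.96 with vehicle (1.18 ± 0.26, adjusted p = 0.115). Dlx4 and Msx1 had 0.27 ± 0.30 and 0.15 ± 0.21, Msx3 had 4 reads with BMP2 and 0 with vehicle, and Dlx5, Dlx6 and Msx2 fell under the filter with at most 3 reads in a group. Of the 5 Dlx and Msx genes tested, 1 was called.

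Tbx20, a T-box factor needed for heart chamber and valve formation, stood at 194 and 164 CPM with BMP2 and at 52.6 and 60.6 with vehicle. The 2 BMP2 libraries were both high, with a gap to vehicle larger than the spread in either group. The rise was 1.66 ± 0.21 (adjusted p = 0.00388), and 1.51 without mt BMP2 replicate 1 (0.0696). Its promoter is shown because it holds both GGCGCC and the Smad box GTCTG, as do, for either strand of that box, those of Gata2, Des and Slc16a3; it was picked after its values and letters had been seen. It lies on the minus strand at chr9:24774254-24774553, with both motifs in capitals.
Tbx20: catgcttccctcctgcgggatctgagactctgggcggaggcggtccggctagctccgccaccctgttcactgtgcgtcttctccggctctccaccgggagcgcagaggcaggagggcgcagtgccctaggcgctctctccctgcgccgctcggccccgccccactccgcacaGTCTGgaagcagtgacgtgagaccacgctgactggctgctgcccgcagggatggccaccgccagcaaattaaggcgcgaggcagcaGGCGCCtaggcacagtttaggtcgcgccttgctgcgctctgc
The cardiac zinc-finger factors Gata4 and Gata5 were higher in both BMP2 libraries than in both vehicle libraries, at 168 and 122 against 79.8 and 74.7 CPM for Gata4, but neither was called (0.90 ± 0.20 and 1.27 ± 0.29, both with adjusted p = 0.117). Of 14 epicardial transcription factors tested, Tbx20 was the 1 called, and the list median was 0.09. The summed level of the 22 cardiomyocyte markers was 237 and 166 CPM with BMP2 and 154 and 91.6 with vehicle, and of the 20 tested none was called (median 0.09). Tnnt2, cardiac troponin T, had the highest level of the list, at 126 and 100.0 against 67.4 and 50.7 CPM (0.93 ± 0.31, adjusted p = 0.425). The part of this difference in the Tbx20 result was not tested. On the log2 scale the Tbx20 difference was 1.88 in pair 1 and 1.43 in pair 2.

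Gata2, a zinc-finger factor best known from blood progenitors and endothelium, was at 23.2 and 18.6 CPM with BMP2 and at 3.31 and 5.11 with vehicle, and rose by 2.25 ± 0.32 (adjusted p = 0.00731). Prrx2, a paired-related homeobox factor of mesenchyme, went from 4.72 and 5.22 CPM to 21.0 and 14.5, a rise of 1.80 ± 0.24 (0.00498). Foxs1, a forkhead factor, went from 3.89 and 3.93 CPM to 11.1 and 11.7, a rise of 1.55 ± 0.25 (0.0154). In each of these genes both BMP2 libraries stood apart from both vehicle libraries, with a gap larger than the spread within either group. The calls of Gata2 and Foxs1 were lost without mt BMP2 replicate 1 (2.19 and 1.61, adjusted p = 0.0860 and 0.116), mt BMP2 replicate 2 (2.31 and 1.47, 0.0579 and 0.202) and mt vehicle replicate 1 (1.86 and 1.53, 0.0521 and 0.0743), that of Foxs1 also without mt vehicle replicate 2 (1.58, 0.0979), and that of Prrx2 without mt BMP2 replicate 1 (1.57, 0.0990).

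Of the 22 Notch genes tested, 1 was called higher with BMP2 and 1 lower. Hes1, a basic helix-loop-helix repressor and a direct target of Notch receptors, stood at 47.7 and 56.8 CPM with BMP2 and at 17.6 and 19.5 with vehicle. Its 2 vehicle libraries nearly coincided, and it rose by 1.49 ± 0.16 (adjusted p = 0.00106). Dtx4, a Deltex ubiquitin ligase of the Notch pathway, was at 13.6 and 12.6 CPM with BMP2 and at 33.8 and 35.7 with vehicle, and fell by 1.41 on the log2 scale (SE 0.16, adjusted p = 0.00183). Hey1, another target of Notch, was at 1.81 and 0.784 CPM against 0.248 and 0.269 and was not called (2.11 ± 0.66, adjusted p = 0.277).

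The gene with the smallest p was Rab3b, a small GTPase of vesicle exocytosis. It stood at 33.9 and 40.6 CPM with BMP2 and at 6.87 and 10.1 with vehicle, and rose by 2.15 ± 0.20 (adjusted p = 0.000832). Crabp1, which binds retinoic acid in the cytoplasm, was read 28 and 69 times with BMP2 and 4 times in each vehicle library, or 3.89 and 3.01 against 0.331 and 0.215 CPM. Both groups were low and well apart, and the rise was 3.65 ± 0.47 (adjusted p = 0.00106). It was the 1 called of 16 genes of retinoic acid synthesis, binding and breakdown, whose median was 0.07. Sh3kbp1, an adaptor in the endocytosis of receptor tyrosine kinases, was at 46.3 and 38.7 CPM against 17.0 and 7.86, so the vehicle libraries differed by more than the BMP2 libraries (1.85 ± 0.22, adjusted p = 0.00251). Unc5b, a netrin receptor, was at 862 and 469 CPM against 325 and 165, with replicate 1 the higher in both groups (1.45 ± 0.19, 0.00393), and without mt BMP2 replicate 1 its value was 1.35 (0.0860). Prkab2, a regulatory subunit of the energy sensor AMPK, was at 64.3 and 79.2 CPM against 27.9 and 30.1 (1.30 ± 0.17, 0.00388). Without the replicate block, 4 of these 5 genes lost their calls, with adjusted p of 0.0676 for Rab3b, 0.277 for Sh3kbp1, 0.937 for Unc5b and 0.0904 for Prkab2.

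The secreted proteins Adamtsl2, Tnc, Mmp10 and Pcolce2 were called higher, while none of 24 collagen chains was called. Adamtsl2, a secreted glycoprotein that binds fibrillin and a latent TGF-beta binding protein, was read 125 and 329 times with BMP2 and 3 and 27 times with vehicle. That is 17.4 and 14.3 CPM against 0.248 and 1.45, so the BMP2 libraries were alike and the vehicle libraries were far apart. The rise was 4.18 ± 0.61 (adjusted p = 0.00546), with 5.63 in pair 1 and 3.21 in pair 2, and it missed the threshold without mt vehicle replicate 1 (3.73, 0.0596) and without mt vehicle replicate 2 (5.65, 0.0644). Tnc, the matrix glycoprotein tenascin C, was at 343 and 272 CPM against 135 and 111 (1.32 ± 0.24, 0.0419), and its entry overlaps 3 entries on the other strand. Mmp10, a stromelysin, and Pcolce2, an enhancer of procollagen processing, were low, at most 5.10 CPM, and rose by 2.20 ± 0.39 and 1.67 ± 0.27 (0.0262 and 0.0158).

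The calls of Tnc, Mmp10 and Pcolce2 were among those that rested on both BMP2 libraries. Without mt BMP2 replicate 1 the adjusted p was 0.513 for Tnc, 0.163 for Mmp10 and 0.116 for Pcolce2, and without replicate 2 it was 0.121, 0.0579 and 0.202, with changes between 1.16 and 2.63. Without mt vehicle replicate 2 it was 0.162, 0.239 and 0.126, and for Tnc and Pcolce2 it was 0.0857 and 0.0682 without mt vehicle replicate 1. The median of the 24 collagen chains was -0.22. The fibrillar collagen Col3a1 was at 3300 and 2817 CPM with BMP2 and at 7512 and 5917 with vehicle, lower in both, and missed the threshold (-1.13 ± 0.27, adjusted p = 0.137). Col14a1, which sits on collagen fibrils, was at 1.39 and 3.53 against 5.79 and 17.6 CPM (-2.14 ± 0.46, 0.0929).

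Of 18 contractile genes of smooth muscle tested, Cnn1 and Des were called higher and none lower. Cnn1, the actin-binding protein calponin 1, was at 17.2 and 12.2 CPM with BMP2 and at 7.12 and 2.74 with vehicle (1.65 ± 0.27, adjusted p = 0.0159). Des, the intermediate filament protein desmin, was at 49.3 and 30.2 against 22.8 and 10.0 CPM (1.32 ± 0.23, 0.0279). In both genes and both groups replicate 1 was the higher library, as it was for the summed level of the 20 genes of the list, which was 6502 and 4854 CPM with BMP2 and 6919 and 3066 with vehicle. Tagln, a widely used smooth muscle marker, was at 1319 and 838 CPM with BMP2 and at 1117 and 322 with vehicle, overlapping between the groups (0.72 ± 0.31, adjusted p = 0.654). Both calls were lost without the replicate block (1.59 and 1.28, adjusted p = 0.615 and 0.818), without mt BMP2 replicate 1 (1.64 and 1.19, 0.147 and 0.371) or replicate 2 (1.65 and 1.43, 0.143 and 0.113), and without mt vehicle replicate 2 (1.22 and 0.96, 0.117 and 0.162). Cardiomyocytes also express Des, and the part of the cardiomyocyte markers that differed between replicates 1 and 2 was not tested; the difference of Des was 1.11 in pair 1 and 1.59 in pair 2. In such bulk samples a change in the number of cells of a type and a change in RNA per cell cannot be told apart.

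Genes best known from the outer epidermis were among the rises. Lce1g, a late cornified envelope protein, was read 12 and 40 times with BMP2 and once in each vehicle library. With 2 reads in the vehicle group the ratio was 26.5, with an exact 95% counting interval from 6.96 to 224 that covers counting error only, and the adjusted p was 0.00251. Ivl, the envelope precursor involucrin, was well expressed at 52.9 and 40.3 CPM against 17.4 and 8.77 (1.85 ± 0.28, adjusted p = 0.0101), and its adjusted p was 0.153 without mt BMP2 replicate 1 (1.67) and 0.0646 without mt vehicle replicate 2 (1.40). Of 28 genes of epidermal differentiation 11 were tested, and Lce1g and Ivl were the called ones. The list median was 1.77, with pair medians of 0.38 and 1.42. Several of the 11 had at most 8 reads with BMP2 and at most 2 with vehicle. Loricrin (Lor) was at 1.39 and 0.828 CPM against 0.331 and 0.161 and missed the threshold (2.17 ± 0.69, 0.281), and the keratin Krt14 was at 5.56 and 4.88 against 9.52 and 5.81 CPM (-0.54 ± 0.32, 0.856).

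Klhl6 and Ptprb, known mainly from B cells and endothelium, also rose. Klhl6, a Kelch-family adaptor, was at 8.06 and 6.32 CPM with BMP2 and at 1.32 and 2.26 with vehicle (1.95 ± 0.30, adjusted p = 0.0109), and Ptprb, the receptor phosphatase VE-PTP of endothelium, at 11.8 and 5.32 against 3.06 and 1.08 CPM (2.06 ± 0.30, 0.00623). Neither overlapped between the groups, although replicate 1 was well above replicate 2 for Ptprb in both groups. Ptprc, the pan-leukocyte marker, had no more than 0.0436 CPM in any of the 4 libraries, and the endothelial marker Pecam1 no more than 0.131. The 13 blood and macrophage markers with an entry summed to 36.7 and 32.0 CPM with BMP2 and to 25.4 and 19.5 with vehicle, and the 15 endothelial markers to 67.4 and 58.4 against 45.4 and 49.1. None of the 6 and 8 tested members of these lists was called. Other members stood well above Ptprc and Pecam1. Kdr, of the endothelial list, was at 41.0 and 31.5 CPM with BMP2 against 25.15 and 25.45 with vehicle. Cd68, of the blood and macrophage list, was at 28.6 and 25.9 against 18.8 and 16.25 CPM. The hemoglobin gene Hba-a2 of that list had reads in replicate 1 only, at 2.78 and 0 against 3.56 and 0 CPM. In wt cells Hba-a2 was at 4.07 and 0 CPM with BMP2 and at 1.21 and 0 with vehicle. Egfl7, also of the endothelial list, was lower with BMP2 in both pairs, at 5.42 and 9.85 against 6.37 and 14.6 CPM. Flt1 and Sox18 of that list were higher with BMP2 without overlap. Flt1 was at 9.865 and 9.235 against 4.881 and 2.045 CPM, and Sox18 at 1.81 and 1.35 against 0.579 and 0.484. Without mt BMP2 replicate 1 the adjusted p was 0.135 for Klhl6 (1.68) and 0.116 for Ptprb (1.78); without mt vehicle replicate 1 it was 0.0698 for Klhl6 (1.70), and without mt vehicle replicate 2 it was 0.0644 for Ptprb (1.67).

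The remaining rises include entries that share their locus with another entry. Slc16a3, the lactate exporter MCT4, rose by 1.39 ± 0.21 (adjusted p = 0.0101), but its entry overlaps that of Csnk1d on the other strand, which held 9544 reads in the 4 libraries, and the labels do not give the strandedness of the counting. Acot11, an acyl-CoA thioesterase, rose by 2.10 ± 0.34 (0.0159) and overlaps Fam151a, with 91 reads. Ass1, the argininosuccinate synthase of the urea cycle, listed by its copy on chromosome 2, went from 87.9 and 32.3 CPM to 146 and 92.4 (1.10 ± 0.19, 0.0262), with the lower BMP2 library barely above the higher vehicle library. Kctd11, a BTB-domain adaptor, and Tmem159, a lipid droplet protein, rose by 1.11 ± 0.19 and 0.89 ± 0.16 (0.0263 and 0.0292). The entry 2200002D01Rik rose by 1.09 ± 0.21 (0.0498), the call nearest to the threshold, and shares its locus with Catsperg1 and with Yif1b, which held 7704 reads. The locus listed as AK077272 and AK019455 rose by 2.15 ± 0.41 (0.0414) on 88 reads in all. Without mt BMP2 replicate 1 none of these entries was called (adjusted p from 0.136 to 0.371). Without mt BMP2 replicate 2 only Slc16a3 and Acot11 were called, and the others had adjusted p from 0.131 to 0.427. Without mt vehicle replicate 1 only Ass1 was called (others 0.0839 to 0.205), and without mt vehicle replicate 2 only Slc16a3 and Kctd11 (others 0.0584 to 0.169).

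Of the 6 entries that fell, 2 encode a related pair of junction proteins. Cgn, or cingulin, and Cgnl1, or paracingulin, both link tight junctions to the cytoskeleton. Cgnl1 was at 43.1 and 28.1 CPM with BMP2 and at 132 and 67.3 with vehicle (-1.47 ± 0.22, adjusted p = 0.0114), and Cgn at 17.0 and 18.6 against 47.3 and 30.8 CPM (-1.10 ± 0.19, 0.0279). In both genes every BMP2 library lay below every vehicle library, with the widest spread between the 2 vehicle libraries. Both calls were lost without mt BMP2 replicate 1 (-1.60 and -0.95, adjusted p = 0.116 and 0.521), mt BMP2 replicate 2 (-1.34 and -1.29, 0.186 and 0.113) or mt vehicle replicate 1 (-1.10 and -0.82, 0.0715 and 0.150).

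The largest fall was that of Lrrtm1, a leucine-rich repeat protein of synapses in neurons, at 1.11 and 1.57 CPM with BMP2 and at 9.85 and 12.6 with vehicle (-3.00 ± 0.33, adjusted p = 0.00106). It lies within Ctnna2 on the other strand, an entry with 256 reads in these libraries against 398 for Lrrtm1. Wnt2b, a Wnt ligand, was at 5.00 and 3.83 CPM against 15.1 and 12.4 (-1.63 ± 0.26, 0.0145) and was the 1 called of 29 Wnt ligands, receptors and secreted inhibitors. C3, the central complement component, was at 96.4 and 62.3 CPM against 228 and 211 (-1.50 ± 0.26, 0.0263) and was the 1 called of 14 complement and acute-phase genes and of 19 mesothelial surface genes. Without mt BMP2 replicate 1 Wnt2b and C3 had -1.54 and -1.64 (adjusted p = 0.259 and 0.208), without replicate 2 -1.76 and -1.38 (0.149 and 0.327), and without mt vehicle replicate 2 -1.44 and -1.34 (0.10 and 0.111).

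Upstream of the Smads, ligands, receptors, secreted antagonists and signalling Smads gave no call. Of the BMP ligands 6 of 14 were tested; Bmp2 itself had no read with BMP2 and 1 in each vehicle library. Bmp3, a ligand that opposes other BMPs, was at 20.6 and 31.5 CPM with BMP2 and at 56.3 and 58.4 with vehicle, and Bmp6 at 35.9 and 21.2 against 68.7 and 30.7. Neither passed (-1.10 ± 0.27 and -0.76 ± 0.20, adjusted p = 0.142 and 0.205), nor did Bmp4 (-0.57 ± 0.24, 0.649) or Gdf6 (0.71 ± 0.19, 0.200). None of 11 receptors and co-receptors was called, with a median of -0.05. The type I receptor Bmpr1a had 0.10 ± 0.20, the type II receptor Bmpr2 -0.05 ± 0.30 and Tgfbr3 -0.52 ± 0.23 (adjusted p = 0.658). Smad1, Smad5 and Smad4 had 0.10 ± 0.19, -0.09 ± 0.16 and -0.37 ± 0.16. Of 11 secreted antagonists none was called; noggin (Nog) was at 182 and 106 CPM against 75.1 and 52.1, without overlap (1.15 ± 0.33, 0.277), and Chrdl1 at 1.81 and 3.05 against 3.31 and 9.63 CPM (-1.36 ± 0.34, 0.157).

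No member was called of 30 mitotic genes (median 0.01, all between -0.40 and 0.42), of 30 p53 targets and cell cycle inhibitors (0.20), of 30 interferon-stimulated genes (-0.10) or of 11 transcription factors of mesenchymal transition (0.23). In the last of these lists Snai1, a repressor of E-cadherin, was at 28.1 and 25.0 CPM against 12.6 and 15.6 (0.90 ± 0.20, adjusted p = 0.115). Of 19 tested genes of the cartilage and bone programme none passed. Runx2, the osteoblast factor, was at 18.9 and 23.7 CPM against 9.43 and 14.9 (0.81 ± 0.21, 0.194), and Sox6, of cartilage, at 11.4 and 11.4 against 25.1 and 21.3 (-0.999 ± 0.28, 0.258). A p that misses the threshold does not show that these genes were unchanged.

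**Figure D2:**
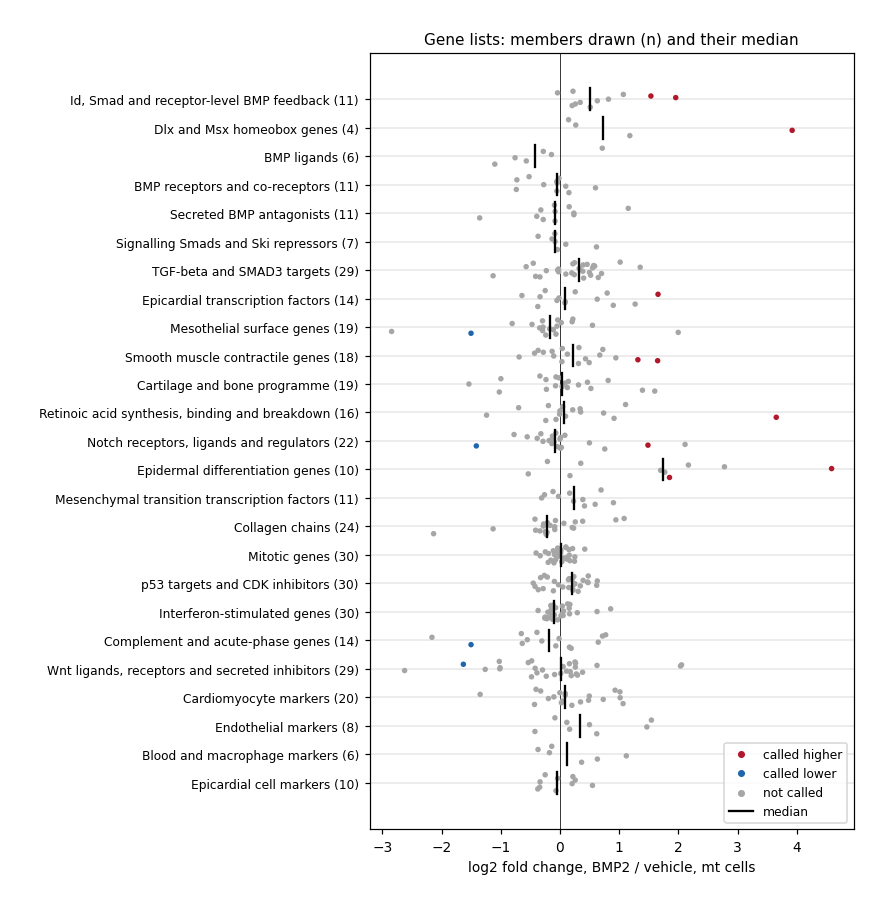
Each point is a tested member of the named list at its log2 fold change of BMP2 over vehicle in mt cells, red where called higher, blue where called lower and grey where not called; black bars are the medians of the members drawn. Msx3 and Lce1c, with no vehicle reads, and members not reported here are left out. Most lists hold 0 or 1 coloured point around a median near 0.

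In wt cells the same treatment gave 0 calls by edgeR (0%), with 2362 genes at an unadjusted p under 0.05 and a smallest adjusted p of 0.0641, whereas DESeq2 called 206. The test of the difference between the lines also called 0 genes (0%), with 1862 at an unadjusted p under 0.05, a smallest adjusted p of 0.435 and 7 calls by DESeq2. No gene is therefore shown by the edgeR test to respond differently in the mt line. Of the 39 entries called in mt cells, 37 had the same sign in wt cells, where 43.5% of all tested genes did. For 38 of the 39 the wt value was the smaller in size, with medians of 0.95 in wt and 1.66 in mt; the entries were chosen for their size in mt cells, so this is a description. By DESeq2 18 of the 39 were also called in wt cells in the same direction.

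Several called genes had log2 fold changes in wt close to those in mt. Hes1 was at 38.1 and 52.8 CPM with BMP2 and at 16.5 and 25.2 with vehicle in wt cells, and the difference of its effects, mt minus wt, was 0.35 with a 95% interval from -0.13 to 0.83. Tbx20 was at 393 and 260 CPM with BMP2 and at 135 and 145 with vehicle in wt cells, above the mt values within each treatment, and its difference was 0.44 (-0.21 to 1.08). For Foxs1 it was 0.18 (-0.56 to 0.92) and for Ptprb -0.02 (-1.32 to 1.29). Ptprb was low in wt cells, at 0.903 and 0.953 CPM with BMP2 and at 0.270 and 0.208 with vehicle. All 4 wt values lay below the mt values, and so few reads limit this comparison.

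The interval of the line difference, unadjusted for the number of genes, left out 0 for 24 of the 39. Over all 16835 tested genes the unadjusted edgeR p of this difference was under 0.05 for 1862. The 39 were chosen by their effect in mt cells, and that effect enters the difference. The count of 24 and the intervals below therefore describe these entries and do not show a difference between the lines. Smad6 was at 300 and 211 CPM with BMP2 and at 194 and 175 with vehicle in wt cells (0.48 ± 0.26), so that the wt vehicle libraries lay above both mt vehicle libraries, and the difference of the effects was 1.48 (0.69 to 2.27, adjusted p = 0.435). Gata2 showed the same arrangement, with 32.4 and 22.9 against 21.9 and 17.9 CPM in wt cells and a difference of 1.80 (0.85 to 2.74, adjusted p = 0.435). Dlx3 was at 7.08 and 6.25 against 1.39 and 3.12 CPM in wt cells (1.57 ± 0.33), above the mt levels in both groups, and differed by 2.35 (0.93 to 3.77, 0.435). For Smad7 the difference was 0.79 (0.22 to 1.36) and for Crabp1 1.94 (0.71 to 3.18), both with the same adjusted p. The 2 entries with opposite signs were Tmem159, at -0.06 ± 0.16 in wt cells, and 2200002D01Rik, at -0.42 ± 0.23. The latter was among the 7 called by DESeq2 for the line difference (1.52, adjusted p = 0.0438); the others were Pcdh19, Sema3e, Arhgap32, Ndufb6, AK031300 and the entry named 4F2 lc, none of which was called in mt cells by edgeR.

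**Figure D3:**
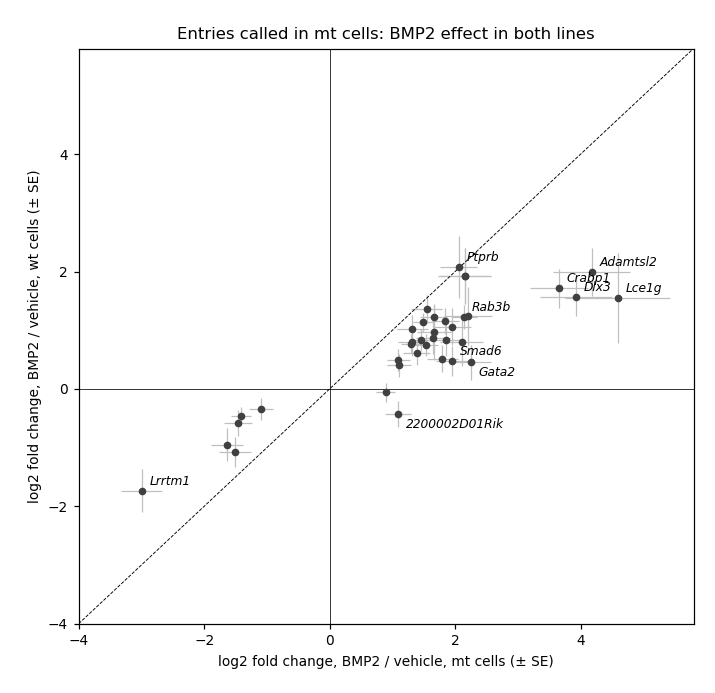
The log2 fold change of BMP2 over vehicle (± SE) in mt cells is plotted against that in wt cells for 37 of the 39 entries called in mt, with the line of equal values dashed. Most points lie between the horizontal axis and the dashed line; Ptprb lies on it, and Tmem159 and 2200002D01Rik lie below 0 in wt cells.

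TGFB1 and TGFB2 were given to the mt cells at 250 pM, against 5 nM for BMP2, and their comparisons use the same vehicle libraries, so the values are only set side by side. They called 5472 (32.5%) and 5641 (33.5%) of the tested genes, of which TGFB1 raised 15.7% and lowered 16.8% and TGFB2 raised 16.6% and lowered 16.9%, and 2763 and 2933 were called without the replicate block. Smad6, at 1.96 with BMP2, had -2.13 ± 0.27 with TGFB1 and -2.10 ± 0.27 with TGFB2 (adjusted p = 6.02e-05 and 6.13e-05). Gata2, at 2.25 with BMP2, had -1.53 and -2.21, Prrx2 had -1.36 and -1.77 beside its 1.80, and Foxs1 -1.40 and -1.44 beside its 1.55 (adjusted p of the 6 TGF-beta values from 0.000278 to 0.00682). Tnc had -0.73 and -0.89 (0.0327 and 0.0118) beside 1.32. These 5 genes were thus higher with BMP2 and lower with both TGF-beta ligands than in the same vehicle libraries. Rab3b, at 2.15 with BMP2, had -0.51 and -0.89, and only its TGFB2 value passed the test (adjusted p = 0.0768 and 0.00561).

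For Dlx3 the TGFB1 and TGFB2 values were -0.07 and -0.11, for Tbx20 -0.31 and -0.20, for Ivl -0.32 and -0.34 and for Prkab2 -0.36 and -0.19, and none of these 8 values passed the test (adjusted p from 0.123 to 0.953). Smad7 was called with all 3 ligands, at 1.54 with BMP2 and at 0.70 and 0.78 with TGFB1 and TGFB2 (0.0115 and 0.00580), and so was Hes1, at 1.49, 0.87 and 0.81. Other genes had the larger value with the TGF-beta ligands. Cnn1 was at 1.65 with BMP2 and at 3.75 and 3.97 with TGFB1 and TGFB2, Ptprb at 2.06, 4.72 and 4.94, and Crabp1 at 3.65, 6.36 and 6.66. Lce1g was at 4.59, 6.80 and 6.67, and all 3 values rest on the same 2 vehicle reads. C3 was lower with each ligand, at -1.50, -3.29 and -3.48, and so were Wnt2b at -1.63, -2.46 and -2.69 and Dtx4 at -1.41, -1.38 and -1.15.

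**Figure D4:**
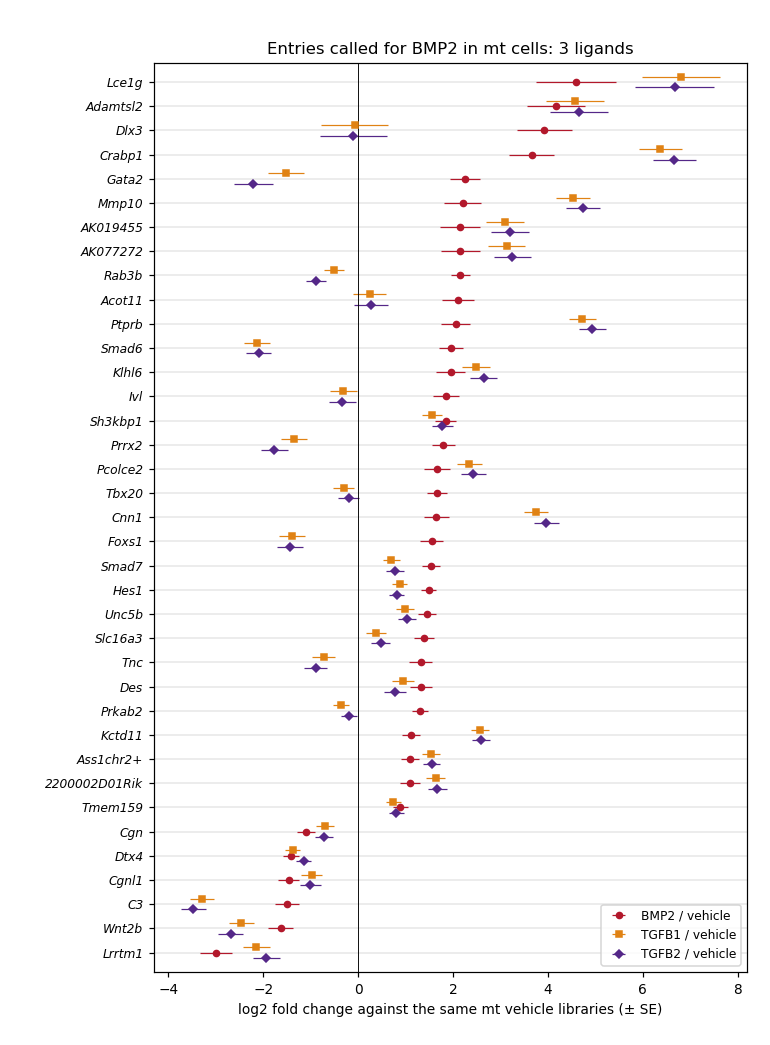
For 37 of the 39 entries called with BMP2 in mt cells the log2 fold changes (± SE) of BMP2, TGFB1 and TGFB2 over the same 2 mt vehicle libraries are drawn on 1 line. Smad6, Gata2, Prrx2, Foxs1, Tnc and Rab3b lie on opposite sides of 0. Dlx3 and Tbx20 lie near 0 with the TGF-beta ligands, and Cnn1, Ptprb and Crabp1 lie farther out with them.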

How the data were processed

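The authors deposited 1 table per replicate number with raw read counts per gene and RPM for each library, in build mm9; per the submitters' processing notes, reads were aligned with TopHat or TopHat2. The deposited RPM matched counts over the column total to within 2.9e-11 and was not tested. Left out were 2 rows without a gene name, and 27 date-like names were not named. Counts were fitted with edgeR 4.0.16 (R 4.3.3) after filterByExpr and TMM scaling: robust quasi-likelihood with 8 group means and a replicate term over 16 libraries, 7 residual degrees of freedom, biological coefficient of variation 0.17, Benjamini-Hochberg over 16835 genes, threshold 0.05; the fit was tested on simulated data. SE is the Wald SE of the fit, and pair differences use log2 CPM with a prior count of 2.

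The replicate numbers pair the libraries: each number has its own table, and after removal of group means same-numbered libraries correlated above 0.1 in 28 of 28 pairs of groups (0.163 to 0.756; mt BMP2 with mt vehicle 0.756). Libraries were grouped by title. Alternatives were no replicate block, a block within each line, RLE factors, no filter, DESeq2 1.42.0, fewer groups, and each library left out; shared loci counted once, and some alternatives for the other contrasts, were added after seeing the data. Members and lists were chosen with earlier results of these data known. Candidates for naming were all called genes (60 or fewer), the members of the BMP pathway lists, and of other lists the called members or the 2 with the smallest p. Not every candidate is named in the text. Others named were chosen after their values were seen: Hey1, Tagln, Lor, Krt14, Gata4 and Gata5, and the Tbx20 and Klhl6 promoters. Also outside this rule were Myh6, Hspb7, Ptprc, Pecam1, Kdr, Egfl7 and Hba-a2. Of the called genes, 2 are not reported here by name.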

Additional observations from a re-analysis of the deposited data

How the results depend on the processing

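None of the recomputed log2 fold changes of the 39 called entries changed sign under any of the 12 alternatives. All 39 had groups that did not overlap and the same sign in both pairs, so a change of sign was hardly possible. For BMP2 against vehicle in mt cells, 7 genes were called without the replicate block, 10 with the 8 mt libraries alone, 11 without the 4 mt replicate 1 libraries, 49 with the compared groups alone, 39 with RLE size factors, 47 with the block within each line, 70 without the low-count filter and 146 by DESeq2. Leaving out each library in turn gave 10 (without mt BMP2 replicate 1) to 39 calls, with 24 without mt BMP2 replicate 2. The full set of 39 was called by DESeq2 and with the block within each line, 38 of it with RLE size factors, 38 without the filter, 25 with the compared groups alone and 9 with the 8 mt libraries alone. The line difference had 0 calls under every edgeR alternative run and 7 by DESeq2. For BMP2 in wt cells there were 206 calls by DESeq2 and 1 with the block within each line; the smallest adjusted p was 0.0641 in the fit used and 0.0444 in that fit. Without the replicate block TGFB1 and TGFB2 in mt cells had 2763 and 2933 calls. Of 300 recomputed list medians 253 moved by less than the spread between pairs and 23 changed sign. The causes were not tested. Fits that leave out 1 library assume that the lone library of its group varies like the others. With 7109519 reads in the shallowest mt library, 1 read is 0.139 CPM there, which limits Lce1g, Crabp1 and Dlx3. The pairs are 2 in number, and each genotype is 1 line.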
